A study of Mus musculus with 43 samples.

Results

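Heat-shock proteins keep other proteins folded, and the RNA of many of them rises within minutes to hours when a cell is warmed, handled or otherwise stressed. The 10 genes described here are Hspa1a, Hspa1b, Hspa8, Hsp90aa1, Hsp90ab1, Hspb1, Dnajb1, Hsph1, Hspd1 and Hspe1, taken by symbol from both expression tables of the series. They are 10 of the 13845 genes in the table of sample processing and 10 of the 13817 genes in the table of cell input, and all 10 passed the filter on low values in both tables. The genes were split by textbook knowledge into 6 inducible members, Hspa1a, Hspa1b, Dnajb1, Hsph1, Hspb1 and Hsp90aa1, and 4 constitutive members, Hspa8, Hsp90ab1, Hspd1 and Hspe1.

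All 43 libraries came from PD798, a mouse line of pancreatic tumor origin. The KPCY donor carried Pdx1-Cre, p53 L/+ and Rosa YFP/YFP. Cre is driven by the promoter of the pancreatic gene Pdx1, so YFP is switched on in cells of pancreatic origin. The line is the only one in these tables, so nothing here speaks to other tumors. In the processing experiment, bulk RNA was sequenced from 3 libraries each of Pre-FACS cells banked before sorting, Mock cells kept in staining buffer on the bench at room temperature for the same time, FACS-only cells sorted on a BD Influx, and Pre-enriched cells. Pre-enriched cells were incubated with magnetic particles and red blood cell lysis buffer and passed through a magnetic and acoustic pre-enrichment device coupled to the same sorter. The study describes FACS-only cells as part of this same sample, sorted with the pre-enrichment step left out. The input experiment held 11 single cells, 12 pools of 10 cells, 6 pools of 100 cells and 2 bulk RNA libraries, with cells spiked into healthy mouse blood, pre-enriched and sorted for YFP. The labels give the pre-enrichment treatment for bulk RNA too, while the study describes that RNA as a control from the cell line, and they mention blood for every sample. Whether the libraries of a group came from separate cultures is not given in the sources used here, so p-values measure the spread between these libraries, which may be technical.

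Under stress, the transcription factor HSF1 binds heat-shock elements, which are inverted repeats of a short GAA unit, and drives the inducible genes. HSP70 proteins hold unfolded chains in cycles driven by ATP, J-domain proteins such as Dnajb1 deliver clients and start the cycle, Hsph1 exchanges the nucleotide, and HSP90 proteins finish the folding of kinases, steroid receptors and other clients. Hspb1 is a small heat-shock protein that holds unfolded protein without ATP, and Hspd1 with its lid Hspe1 forms the folding chamber of mitochondria.

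The sequences before the start sites are shown first because both classes of member carry heat-shock units there. RefSeq promoter windows (GRCm38.p6, from 250 bases before to 50 bases after the start) were matched for 7 of 10 members, all but Hspa8, Hsp90aa1 and Hsp90ab1. Both strands were searched for the pairs GAANNTTC and TTCNNGAA, each of which is its own reverse complement. A pair was present in 4 of 5 inducible members, with Dnajb1 the exception, and in 2 of 2 constitutive members, against 13.9% of the 10463 genes of the processing table with a window and 15.1% of all 32851 windows. Runs of 3 alternating units, GAANNTTCNNGAA or TTCNNGAANNTTC, which contain the pairs, were present in Hsph1, Hspd1 and Hspe1 and in 0.593% of the table's genes. A match is a run of letters, and binding was not measured. The elements below are written 5′ to 3′ on the strand of each gene, with the units and the bases between them in capitals and 4 flanking bases on each side in lower case. In GRCm38.p6 coordinates, the elements lie at chr17:34972253-34972260 (Hspa1a), chr17:34959335-34959342 (Hspa1b), chr5:135887802-135887809 and chr5:135887822-135887829 (Hspb1), chr5:149636362-149636369 and chr5:149636288-149636300 (Hsph1), and chr1:55088059-55088076 (Hspd1 and Hspe1).
Hspa1a, - strand: gctgGAAGATTCctgg
Hspa1b, - strand: gctgGAAGATTCctgg
Hspb1, + strand, first: aagaGAAGTTTCcaga
Hspb1, + strand, second: ggcaGAACCTTCctgg
Hsph1, - strand, first: atctTTCTCGAAggct
Hsph1, - strand, second: cagaTTCTGGAAAGTTCtcct
Hspd1, - strand: ggccTTCCGGAAGGTTCTAGAAcgga
Hspe1, + strand: tccgTTCTAGAACCTTCCGGAAggcc

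Hspd1 and Hspe1 lie head to head on chromosome 1, and their elements are the same 18 bases read on opposite strands, 144 to 127 bases before one start of Hspd1 and 89 to 72 bases before the start of Hspe1. In Hspa1a and Hspa1b the pair lies 104 to 97 bases before the start, and in Hspb1 the pairs lie 117 to 110 and 97 to 90 bases before it. The second Hsph1 element lies after the start. The windows of Hspa1a and Hspa1b were identical at 296 of 300 bases (98.7%). Their 250 bases before the start are shown for Hspa1a (chr17:34972157-34972406, - strand), beside those of Hspb1 (chr5:135887669-135887918, + strand) and the 203 bases before a start of Dnajb1 (chr8:83607972-83608174, + strand), which hold no pair.
Hspa1a: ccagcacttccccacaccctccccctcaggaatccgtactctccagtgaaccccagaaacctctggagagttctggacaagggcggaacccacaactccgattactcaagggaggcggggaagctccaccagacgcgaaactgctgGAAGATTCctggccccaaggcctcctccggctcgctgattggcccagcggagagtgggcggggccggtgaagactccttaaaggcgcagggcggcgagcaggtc
Hspb1: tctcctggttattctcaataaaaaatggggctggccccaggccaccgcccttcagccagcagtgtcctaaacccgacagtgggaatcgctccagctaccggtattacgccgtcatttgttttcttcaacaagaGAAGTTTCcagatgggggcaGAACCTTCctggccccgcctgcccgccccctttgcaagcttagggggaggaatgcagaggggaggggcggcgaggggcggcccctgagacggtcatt
Dnajb1: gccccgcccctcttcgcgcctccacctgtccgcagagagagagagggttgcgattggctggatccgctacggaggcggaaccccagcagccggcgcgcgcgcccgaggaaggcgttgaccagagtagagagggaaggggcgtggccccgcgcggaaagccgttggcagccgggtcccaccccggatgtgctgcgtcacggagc

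**Figure D1:**
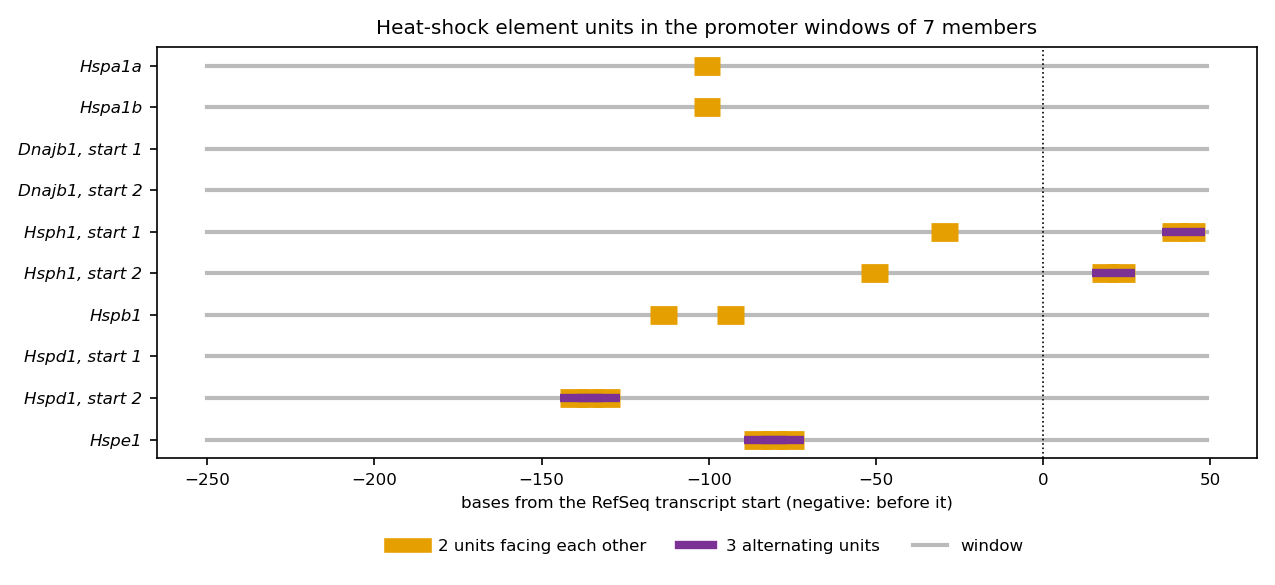
Positions of heat-shock pairs and runs of 3 units in the promoter windows of the members, by distance in bases from the start site. Hspa1a and Hspa1b share a position, and Hspd1 and Hspe1 carry the same 18 bases on opposite strands.

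The files give TPM, an RNA level scaled by transcript length and by library, with no counts, so the depth of a library is unknown and no interval from counts can be given. In the processing table, 11733 to 11867 genes reached 1 TPM in a library. All 9 ductal markers (Krt7, Krt8, Krt18, Krt19, Epcam, Cdh1, Cldn7, Muc1 and Sox9) were present, summing to 24889 to 28430 TPM, while 4 of 18 blood cell markers were listed, summing to 2.70 to 7.92 TPM. Some members share sequence with another gene, so their levels are uncertain where reads could be split: of the 75-base words of each member's longest transcript, 61.7% for Hspa1a, 55.8% for Hspa1b, 53.1% for Hsp90aa1, 47.3% for Hspb1, 41.3% for Hspa8 and 33.7% for Hspd1 also occur in another annotated gene, with Hspa1a and Hspa1b mostly matching each other and the rest pseudogenes or gene models such as Hsp25-ps1, Gm12346, Gm15459 and Hspd1-ps3. Dnajb1 and Hsph1 share none, Hsp90ab1 0.736% and Hspe1 3.15%.

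The first comparison asks whether staining, sorting or pre-enrichment left a stress response in the RNA. In the main fit, which has no replicate block, no member passed the threshold (limma on log2(TPM + 1) over all 12159 genes, Benjamini-Hochberg adjusted p under 0.05) in the test of all 4 conditions or in any of the 6 pairs. Of all genes, 0.107% were called in the test of 4 conditions, 0.00822% for Mock against Pre-FACS, 0.123% for FACS-only against Pre-FACS and 0.0493% for Pre-enriched against Pre-FACS, and 0 in the other 3 pairs. At an unadjusted p under 0.05 there were 2 members in the test of 4 conditions, 3 for Pre-enriched against Pre-FACS and 1 in each other pair. Of all 12159 genes, 919, 1116 and 551 to 945 were under it in the same order. Of the 60 differences between a member's means in a pair of conditions, 55 were smaller than 0.25 on the log2 scale. The 3 comparisons with Pre-FACS share the same control libraries. The median difference of the members from Pre-FACS was -0.01 for Mock, -0.01 for FACS-only and -0.01 for Pre-enriched, beside 0.00, 0.00 and -0.01 for all genes tested. With the replicate number as a block, 1 member, Hsp90aa1, was called for Pre-enriched against Pre-FACS (limma adjusted p = 0.0209), where 37 of the 12159 genes were called.

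**Figure D2:**
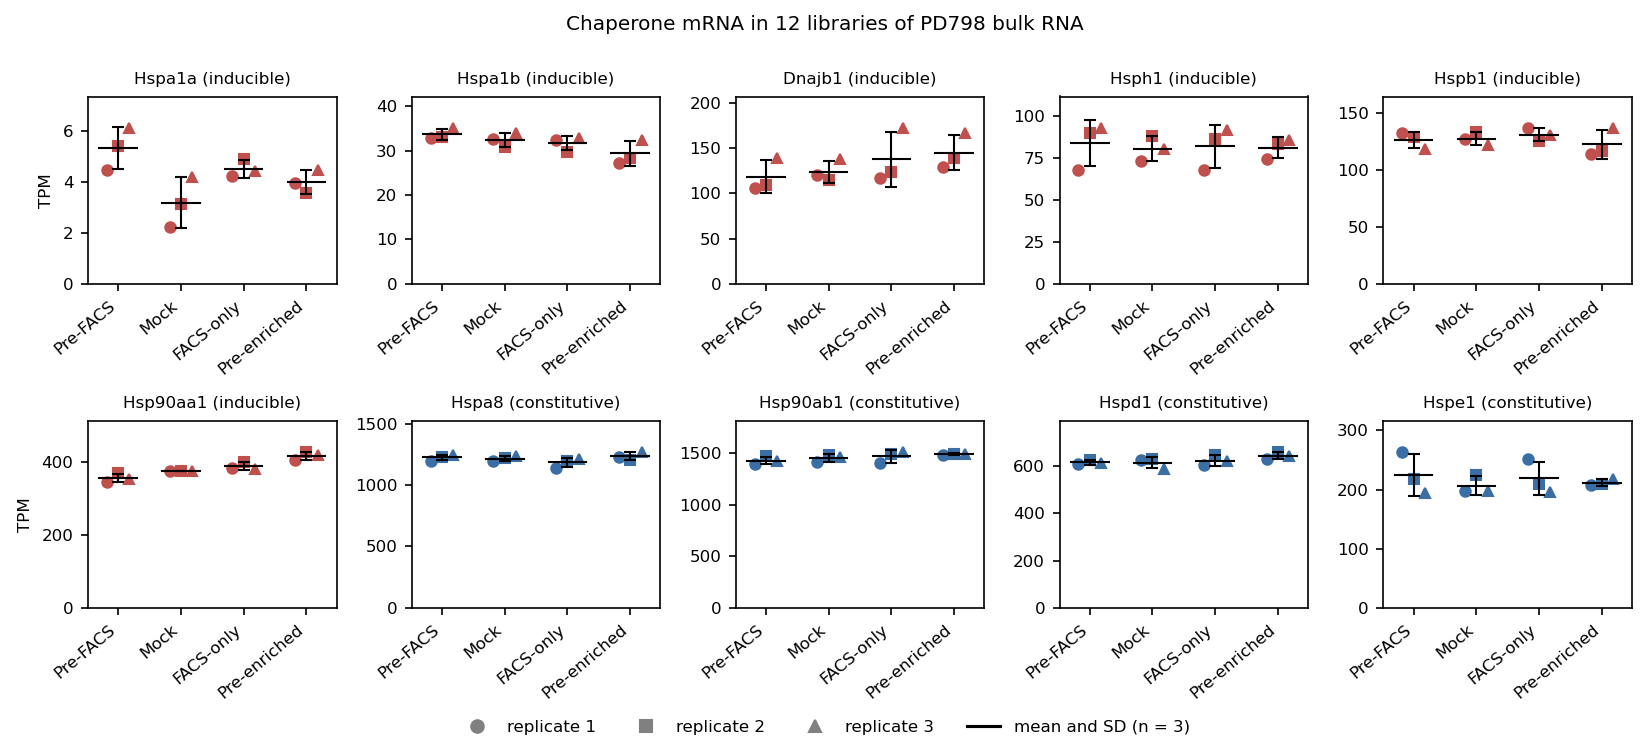
TPM of each member in the 3 libraries of Pre-FACS, Mock, FACS-only and Pre-enriched cells, with group means and SD (n = 3) as bars. Only Hsp90aa1 has 4 groups that do not overlap, from 347 to 370 TPM before sorting to 406 to 429 TPM with pre-enrichment. That difference did not pass the main test, and passed with the replicate number as a block. The share of all genes with 4 separate groups was not counted.

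The heat-inducible HSP70 pair was low. Hspa1a (chr17:34969190-34972156 on the - strand, GRCm38/mm10) measured 4.50, 5.41 and 6.15 TPM in the Pre-FACS libraries. The Mock libraries held 2.25, 3.13 and 4.22 TPM, the FACS-only libraries 4.24, 4.91 and 4.43 TPM, and the Pre-enriched libraries 3.97, 3.56 and 4.49 TPM. Every Pre-FACS library lay above every Mock and every Pre-enriched library, the latter by a narrow gap (4.495 against 4.486 TPM), and Pre-FACS overlapped FACS-only. The Mock mean, 3.20 ± 0.989 TPM (SD, n = 3), lay below the Pre-FACS mean, 5.35 ± 0.827 TPM, by a log2 difference of -0.61 (SE 0.191, 95% interval -1.02 to -0.21), which did not pass the test (limma adjusted p = 0.997, unadjusted 0.0053). FACS-only, at 4.53 ± 0.342 TPM, stood 0.42 above Mock on the log2 scale (adjusted p = 0.875).

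Its neighbour Hspa1b (chr17:34956436-34959238, - strand) encodes nearly the same protein and was higher, at 32.8, 33.1 and 35.2 TPM in Pre-FACS and 32.6, 30.8 and 34.0 TPM in Mock libraries. FACS-only libraries held 32.5, 29.8 and 32.8 TPM and Pre-enriched libraries 27.2, 28.4 and 32.5 TPM. All Pre-enriched and all FACS-only libraries lay below the lowest Pre-FACS library, the latter by a gap within rounding (32.838 against 32.840 TPM). The log2 difference of Pre-enriched from Pre-FACS was -0.19 (SE 0.0900, limma adjusted p = 0.535). Hspa1b exceeded Hspa1a by 5.72 to 14.5 times over the 12 libraries.

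The J-domain protein Dnajb1 (chr8:83608193-83612653, + strand) measured 106, 109 and 139 TPM before sorting (Pre-FACS) and 120, 114 and 138 TPM after the Mock incubation. It measured 117, 123 and 172 TPM with FACS-only and 129, 139 and 166 TPM with pre-enrichment. Replicate 3 was the highest in 4 of 4 conditions, and the groups overlapped. Its log2 difference of Pre-enriched from Pre-FACS was 0.29 (SE 0.135, 95% interval 0.0039 to 0.58, limma adjusted p = 0.539). The HSP70 exchange factor Hsph1 (chr5:149614287-149636376, - strand) had means between 80.5 ± 7.58 TPM in Mock and 83.6 ± 13.7 TPM in Pre-FACS libraries (SD, n = 3). Its replicate 1 was the lowest in 4 of 4 conditions, at 67.6 to 74.2 TPM. Hspb1 (chr5:135887919-135889563, + strand) ranged from 114 to 137 TPM with all 4 groups overlapping.

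Of the HSP90 genes, Hsp90aa1 (chr12:110690605-110702728, - strand), the stress-responsive form, was the only member with no overlap among the 4 groups. It measured 347, 370 and 355 TPM in Pre-FACS and 376, 377 and 375 TPM in Mock libraries. FACS-only libraries held 385, 402 and 381 TPM and Pre-enriched libraries 406, 429 and 419 TPM. The groups followed the order Pre-FACS, Mock, FACS-only and Pre-enriched in these values, each library of a group above every library of the one before. The share of all genes with 4 separate groups was not counted, so this pattern has no background beside it. The Pre-enriched mean of 418 ± 11.6 TPM was 0.23 above the Pre-FACS mean of 357 ± 11.7 TPM on the log2 scale (SE 0.0460, 95% interval 0.13 to 0.32), and this did not pass the test (limma adjusted p = 0.107, 0.0209 to 0.372 over 19 alternatives, the lowest with the replicate number as a block). The differences of FACS-only and Mock from Pre-FACS were 0.12 (adjusted p = 0.577) and 0.08 (adjusted p = 0.997). Pre-enriched stood 0.15 above Mock (adjusted p = 0.475) and 0.10 above FACS-only (adjusted p = 0.733).

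Ranges of 3 libraries against 3 that do not overlap were common in this table. Some gaps were very narrow, such as those of Hspa1b in FACS-only and Hspa1a in Pre-enriched libraries against Pre-FACS. For Pre-enriched against Pre-FACS they were found for Hsp90aa1, Hsp90ab1 and Hspd1, all higher, and Hspa1a and Hspa1b, both lower, beside 14.2% of all genes. For FACS-only against Pre-FACS they were Hsp90aa1, higher, and Hspa1b, lower, beside 11.6% of all genes. For Mock against Pre-FACS they were Hsp90aa1, higher, and Hspa1a, lower, beside 9.33%. Hsp90aa1 alone was separated, and higher, for Pre-enriched against Mock (15.4% of all genes) and against FACS-only (12.3%), and Hspa1a and Hsp90aa1, both higher, for FACS-only against Mock (10.5%).

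The constitutive Hsp90ab1, Hspa8 and Hspd1 were the 3 most abundant members and had the lowest coefficients of variation. Hsp90ab1 (chr17:45567775-45573271, - strand), the constitutive cytosolic HSP90, measured 1396, 1468 and 1419 TPM before sorting and 1482, 1494 and 1492 TPM with pre-enrichment, with Mock and FACS-only between 1400 and 1513 TPM. Hspa8 (chr9:40800984-40810087, + strand), the constitutive HSP70, measured 1200, 1231 and 1244 TPM before sorting (Pre-FACS) and 1193, 1217 and 1238 TPM after the Mock incubation. It measured 1140, 1199 and 1212 TPM with FACS-only and 1232, 1206 and 1271 TPM with pre-enrichment. All 4 groups of Hspa8 overlapped, and replicate 3 was the highest in each. The coefficient of variation over the 12 libraries was 2.70% for Hspa8, 2.80% for Hsp90ab1 and 3.24% for Hspd1, against 23.8% for Hspa1a and 16.03% for Dnajb1. The mitochondrial chaperonin Hspd1 (chr1:55077835-55088243, - strand) ranged from 586 to 660 TPM and its lid Hspe1 (chr1:55088132-55091307, + strand) from 194 to 264 TPM. Hspe1 varied most among the constitutive members, at 10.2%.

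**Figure D3:**
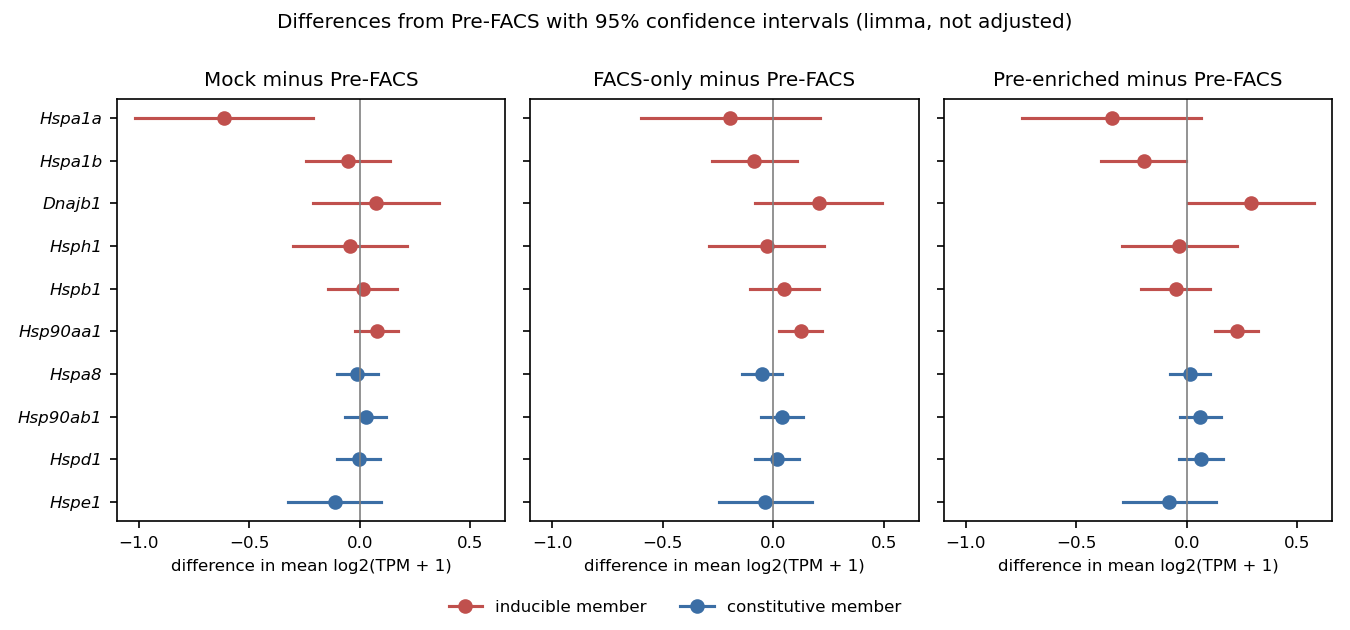
Log2 difference of each member in Mock, FACS-only and Pre-enriched libraries from Pre-FACS, with 95% intervals from limma. The widest departures are Hspa1a in Mock (-0.61) and Pre-enriched libraries (-0.34) and Dnajb1 in Pre-enriched libraries (0.29), and none passed the adjusted threshold.

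The order of levels was nearly fixed. Over the 12 libraries the median TPM was 1475 for Hsp90ab1, 1214 for Hspa8, 624.9 for Hspd1, 379 for Hsp90aa1, 210 for Hspe1, 128 for Hspb1, 126 for Dnajb1, 84.5 for Hsph1, 32.5 for Hspa1b and 4.34 for Hspa1a. Each gene exceeded the next in 12 of 12 libraries, other than Hspb1 and Dnajb1, where Hspb1 was the higher in 6 of 12. Ranked among all genes by the Pre-FACS mean, Hsp90ab1 was number 44 and Hspa8 number 55, while Hspa1b was number 5666 and Hspa1a number 10030. The inducible Hspa1a and Hspa1b together amounted, as a share of Hspa8, to 3.19% ± 0.117 (SD, n = 3) for Pre-FACS cells. The share was 2.93% ± 0.149 for Mock, 3.06% ± 0.166 for FACS-only and 2.70% ± 0.193 for Pre-enriched cells. Hsp90aa1 over Hsp90ab1 was 0.250 ± 0.00182 for Pre-FACS, 0.259 ± 0.00639 for Mock, 0.265 ± 0.0123 for FACS-only and 0.281 ± 0.00671 for Pre-enriched cells. The 6 inducible members made up 17.2% ± 0.554 of the summed TPM of all 10 before sorting (Pre-FACS) and 18.2% ± 0.698 after pre-enrichment.

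Of 61 further chaperones, cochaperones and heat-shock factors in the processing table, 0 passed the threshold in the test of 4 conditions or in any pair. In the former, 6 had an unadjusted p under 0.05 (limma), beside 919 of 12159 genes. The lowest p in the test of 4 conditions belonged to Hspa5, the HSP70 of the endoplasmic reticulum (adjusted p = 0.278), Dnajb9, a J-domain protein of the same compartment (adjusted p = 0.366), and Ptges3, the HSP90 cochaperone p23 (adjusted p = 0.413). Hspa5 differed from Pre-FACS on the log2 scale by 0.17 for Mock, 0.32 for FACS-only (adjusted p = 0.0622) and 0.14 for Pre-enriched cells. Dnajb9 differed by 0.26, 0.52 (adjusted p = 0.109) and 0.28 in the same order. Ptges3 differed by 0.13, 0.14 and 0.20 (adjusted p = 0.182 for Pre-enriched).

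Across the 12 processing libraries, the genes whose log2 TPM followed Hspa1a most closely were Serpina1d (Pearson r = 0.896), Lrrc27 (0.855) and Ccdc14 (0.854). Those most like Hspa8 were Sgta (0.877), a cochaperone, Nap1l4 (0.875) and Pdia3 (0.859). These are descriptions, picked as the highest of 12158 genes over libraries that share 4 conditions and their replicate numbers.

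The input experiment asks how far single cells and small pools stand for the bulk. Some libraries stood apart before any member was considered. Single cells 6 and 9 and 10-cell pools 5 and 12 correlated with 100-cell pools 1 to 3 at r = 0.973 to 0.992 over all genes and held 11223 to 11498 genes at 1 TPM or more. The other 9 single cells correlated at 0.647 to 0.827 and held 3919 to 8598 genes. The other 10 pools of 10 correlated at 0.884 to 0.953, and 100-cell pools 4 to 6 at 0.878 to 0.897. Single cell 6 and 10-cell pool 5 correlated at 0.995, above the 0.993 of the bulk RNA pair. These groupings come from the profiles and are not groups of the study, and whether these wells held the inputs on their labels was not tested. Calls that rest on these libraries are also given without them, as are most of the medians. The listed genes of the other 9 single cells summed to 54.2% to 96.6% of the TPM total, against 93.5% to 99.99% in the pools and bulk RNA. All 9 ductal markers were listed, and their sum ranged from 3463 to 30268 TPM in single cells. Blood markers (6 of 18 listed) summed to 0 to 322 TPM in single cells, 0.868 to 111 TPM in pools of 10, 42.2 to 156 TPM in pools of 100 and 47.3 to 64.2 TPM in bulk RNA, and their part in the results was not tested. In pools, fewer cells expressing a gene and less RNA per cell cannot be told apart.

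**Figure D4:**
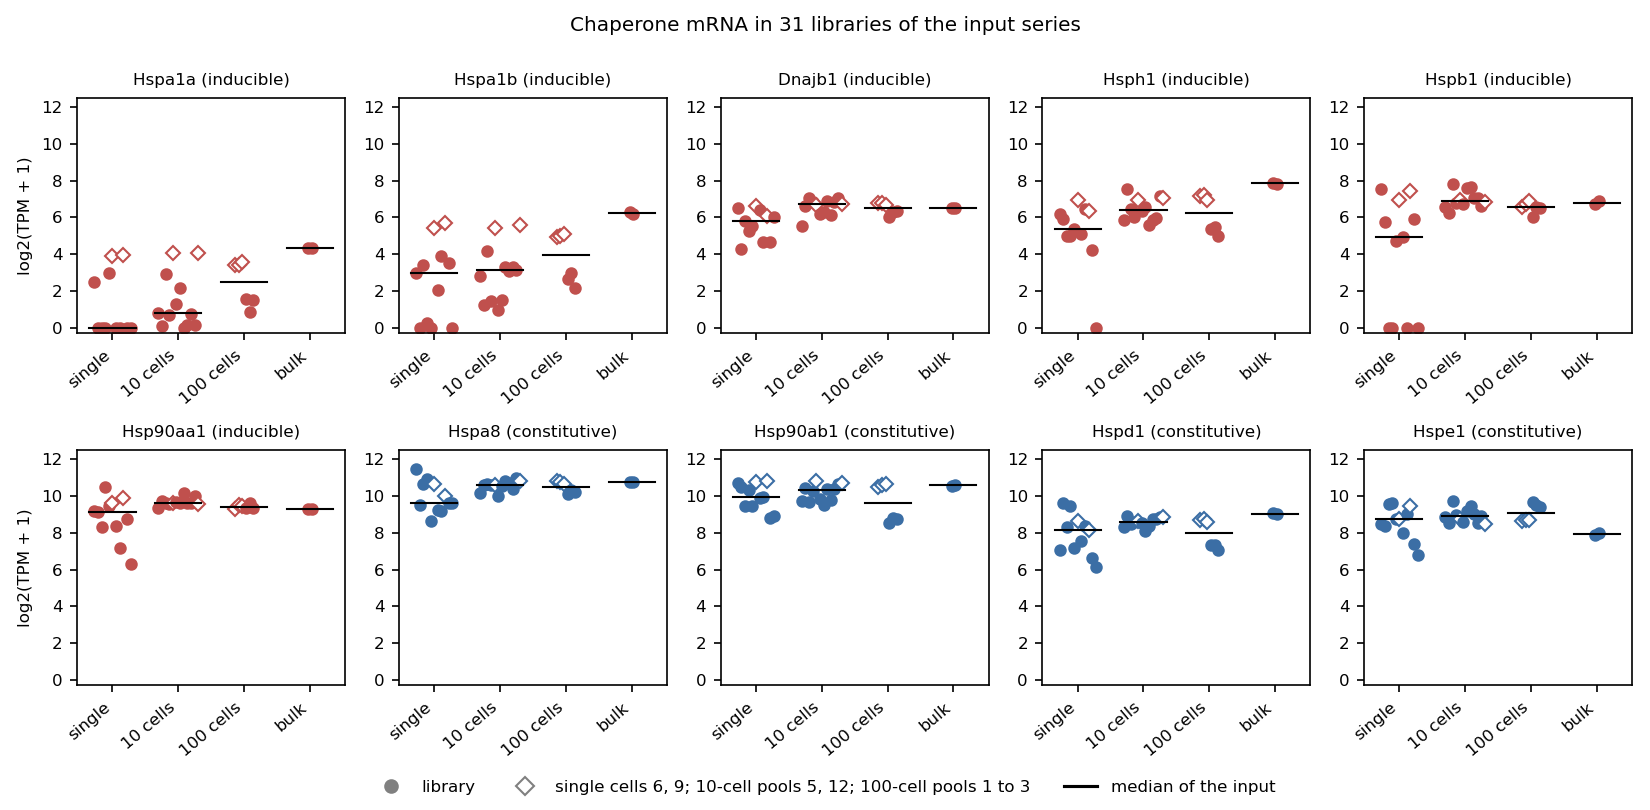
Level of each member as log2(TPM + 1) in single cells, pools of 10, pools of 100 and bulk RNA, 1 point a library with the median of the input as a line, and open diamonds for single cells 6 and 9, 10-cell pools 5 and 12 and 100-cell pools 1 to 3. Hspa1b in those diamonds and in bulk RNA lies at 29.6 to 76.8 TPM, above the 0 to 17.2 TPM of the other libraries.

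The levels of Hspa1a and Hspa1b followed the libraries that stood apart. Hspa1b lay between 29.6 and 76.8 TPM in those 7 libraries and the 2 bulk RNA libraries, and between 0 and 17.2 TPM in the other 22. Hspa1a lay between 9.46 and 19.2 TPM in the same 9 libraries and between 0 and 6.82 TPM in the other 22. Among single cells, Hspa1a measured 14.1 and 14.3 TPM in cells 6 and 9, 6.82 TPM in cell 5 and 4.55 TPM in cell 1, and was listed at 0 in the other 7. Hspa1b measured 42.2 and 51.2 TPM in cells 6 and 9, 0.200 to 13.9 TPM in 6 cells and was listed at 0 in 3. In bulk RNA, Hspa1a measured 19.2 and 19.0 TPM and Hspa1b 76.8 and 70.2 TPM.

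Against single cells, pools of 10 had 1 member called, Hspb1. It was listed at 0 in 4 of 11 single cells and ranged up to 187 TPM, with a median of 29.5 TPM, while the pools of 10 held 74.1 to 226 TPM with a median of 117 TPM. Without the single cells and 10-cell pools that stood apart, the Hspb1 medians were 25.4 and 121 TPM. Its mean log2(TPM + 1) was 3.05 higher in the pools (SE 0.853, limma adjusted p = 0.0197), where 16.9% of 12325 genes were called, all of them higher. Zeros in single cells lower a mean of log2 values, and a pool averages its cells before the log is taken. The part of this in the difference was not tested. Hspb1 was also called in all 9 alternatives (limma adjusted p = 0.00695 to 0.0414). All 10 members had a higher mean in the pools, with a median difference of 0.64 against 0.91 for all genes, 0.92 for the inducible and 0.48 for the constitutive members. With TPM rescaled to the listed genes, Hspa1a (-0.12) and Hsp90ab1 (-0.11) were lower in the pools, neither of them called. Without the single cells and 10-cell pools that stood apart, Dnajb1 (1.10, adjusted p = 0.0331) and Hsp90aa1 (1.11, adjusted p = 0.0387) were also called, beside Hspb1 (3.80, adjusted p = 0.00815), where 25.7% of all genes were called. The median differences were then 0.73 for the members, 1.10 for the inducible and 0.60 for the constitutive ones.

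Single cells also spread more. Hsp90aa1 ranged from 76.8 to 1452 TPM in single cells (median 557), an 18.9-fold range, and from 642 to 1131 TPM in pools of 10 (median 778), a 1.76-fold range. Hspd1 ranged from 70.7 to 790 TPM in single cells (median 278) and from 270 to 476 TPM in pools (median 386). Hspa8 was detected in every cell, at 397 to 2856 TPM (median 793), against 1027 to 2021 TPM in pools (median 1540), and Hsp90ab1 at 446 to 1818 TPM (median 972) against 735 to 1772 TPM (median 1288). Without the 4 libraries that stood apart, the medians in single cells and pools were 435 and 786 TPM for Hsp90aa1 and 184 and 374 TPM for Hspd1. They were 788 and 1540 TPM for Hspa8 and 946 and 1083 TPM for Hsp90ab1. The SD of the log2 level was larger in single cells for 10 of 10 members and for 85.7% of all genes (10 of 10 and 82.2% without the 4 libraries that stood apart). Absolute deviations from the group median were lower in pools by 2.26 for Hspb1 (limma adjusted p = 0.0178), 0.77 for Hsp90aa1 (adjusted p = 0.0405) and 0.70 for Hspd1 (adjusted p = 0.0349) on the log2 scale, where 16.2% of genes were called lower. Without the 4 libraries named above, Hspb1 (adjusted p = 0.0296) and Hspd1 (0.0471) remained called, where 15.3% of genes were called in either direction, and Hsp90aa1 was not (-0.76 on the log2 scale, adjusted p = 0.0612).

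Between pools of 100 and pools of 10, 0 members were called (limma), where 0.00811% of genes were. There 3 members (Hspd1, Hsp90aa1 and Hspb1) had an unadjusted p under 0.05, beside 792 of 12325 genes. The 6 pools of 100 were not alike. Hsp90ab1 measured 1447, 1543 and 1578 TPM in pools 1 to 3 and 368, 438 and 421 TPM in pools 4 to 6. Hspd1 measured 414, 427 and 385 TPM in the former and 157, 160 and 134 TPM in the latter, and Hsph1 143, 148 and 124 TPM against 40.98, 42.97 and 30.63 TPM. Hspe1 ran the other way, at 399, 406 and 410 TPM against 828, 739 and 685 TPM, while Hsp90aa1 overlapped, at 634, 716 and 687 TPM against 656, 773 and 643 TPM.

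The split among the pools of 100 also went with transcript length. The median log2 difference of pools 4 to 6 from pools 1 to 3 was 0.73 for genes whose longest transcript is under 1000 bases, -0.14 for 1000 to 2000 bases, -0.94 for 2000 to 4000 bases and -0.90 over 4000 bases. Hspe1 (964 bases) differed by 0.88, Hspb1 (930 bases) by -0.35, Hspd1 (2423 bases) by -1.44, Hsp90ab1 (2520 bases) by -1.90, Hsph1 (4764 bases) by -1.84 and Hsp90aa1 (3281 bases) by 0.02. Hspa1b (2803 bases) differed by -2.42, Hspa1a (2967 bases) by -2.18, Dnajb1 (2996 bases) by -0.54 and Hspa8 (3158 bases) by -0.53. Members of similar length thus differed by unlike amounts. The part of length in these values was not tested. Without pools 1 to 3, the comparison with pools of 10 called 3 members lower, Hsp90ab1 (-1.50, limma adjusted p = 0.000686), Hspd1 (-1.35, adjusted p = 9.89e-05) and Hsph1 (-1.16, adjusted p = 0.0251), where 15.8% of all genes were called. Without pools 4 to 6 it called 0 members, and 0.0162% of all genes.

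Against pools of 10, bulk RNA had 4 members called. By the study's description, the pools were lysed after sorting, while the bulk RNA was isolated from the cell line. Input size, RNA isolation and sorting therefore cannot be told apart here. On the log2(TPM + 1) scale Hspa1b rose by 3.21 (SE 1.00, limma adjusted p = 0.0175), Hspa1a by 2.90 (SE 0.988, adjusted p = 0.0271) and Hsph1 by 1.42 (SE 0.405, adjusted p = 0.0112). Hspe1 fell by 0.99 (SE 0.270, adjusted p = 0.00866), from 353 to 855 TPM in the pools (median 471) to 232 and 252 TPM in bulk RNA. Of all genes, 33.2% were called higher and 7.79% lower, so 4 of 10 members was close to the 41% called in all. Hsph1 measured 232 and 228 TPM in bulk RNA against 46.7 to 183 TPM in the pools (median 83.0). Without 10-cell pools 5 and 12, the pool medians were 72.7 TPM for Hsph1 and 489 TPM for Hspe1. The other 6 members were not called, with differences from -0.37 for Hsp90aa1 (adjusted p = 0.0835) to 0.46 for Hspd1 (adjusted p = 0.0647).

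The bulk result rests on 2 libraries. With either one left out, the fit must assume that the lone library varies like the pools, so no calls are read from it. The differences in those fits stayed near their size, at 3.15 and 3.28 for Hspa1b, 2.89 and 2.90 for Hspa1a, 1.401 and 1.43 for Hsph1 and -0.93 and -1.05 for Hspe1. With a pseudocount of 0.1, Hspa1a was not called (4.12, adjusted p = 0.0746). Without 10-cell pools 5 and 12 the same 4 members were called, Hspa1b at 3.72, Hspa1a at 3.42, Hsph1 at 1.53 and Hspe1 at -1.05, where 45.8% of all genes were called. Length moved with this comparison too, with a median difference of -0.82 for genes under 1000 bases and 1.38 for genes over 4000 bases, and its part in the results was not tested.

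Ratios within a library compare members on the TPM scale, which is scaled by transcript length. Differences between inputs still went with length. The median log2 difference of bulk RNA from pools of 10 was -0.82 for genes under 1000 bases and 0.61 for 2000 to 4000 bases. The part of length in the ratios was not tested. The inducible Hspa1a and Hspa1b together were 5.20% and 5.51% of Hspa8 in bulk RNA, and the median was 0.595% in single cells, 0.488% in pools of 10 and 1.43% in pools of 100. Single cells 6 and 9 stood at 3.57% and 6.39%, and without them the median of single cells was 0.523%. Without 10-cell pools 5 and 12 the median of pools of 10 was 0.431%. Pools of 100 split into a median of 2.31% for pools 1 to 3 and 0.607% for pools 4 to 6.

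Hsp90aa1 over Hsp90ab1 was 0.400 to 0.419 in bulk RNA, 0.146 to 1.13 in single cells (median 0.449) and 0.440 to 1.06 in pools of 10 (median 0.708). Without the libraries that stood apart, the medians were 0.392 in single cells and 0.812 in pools of 10. It was 0.436 to 0.464 in 100-cell pools 1 to 3 and 1.53 to 1.78 in pools 4 to 6, where the level of Hsp90ab1 differed and that of Hsp90aa1 overlapped. Hspd1 over Hspe1, which work as a pair, was 2.04 to 2.31 in bulk RNA, and its medians were 0.638 in single cells, 0.863 in pools of 10 and 0.578 in pools of 100. Without single cells 6 and 9 and 10-cell pools 5 and 12, the first 2 medians were 0.638 and 0.789. Its values were 0.939 to 1.05 in pools 1 to 3 and 0.190 to 0.217 in pools 4 to 6. The longest transcripts of Hspd1 (2423 bases) and Hspe1 (964 bases) differ in length, and the part of length in this ratio was not tested. The share of the inducible members in the summed TPM of all 10 had a median of 19.4% in single cells (8.89% to 32.6%), 23.7% in pools of 10 and 23.3% in pools of 100, and was 22.1% to 22.3% in bulk RNA. Without those 4 libraries the median was 17.4% in single cells and 24.02% in pools of 10. Without 100-cell pools 1 to 3 the median in pools of 100 was 26.1%. The ranges of single cells and pools overlapped for this share.

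**Figure D5:**
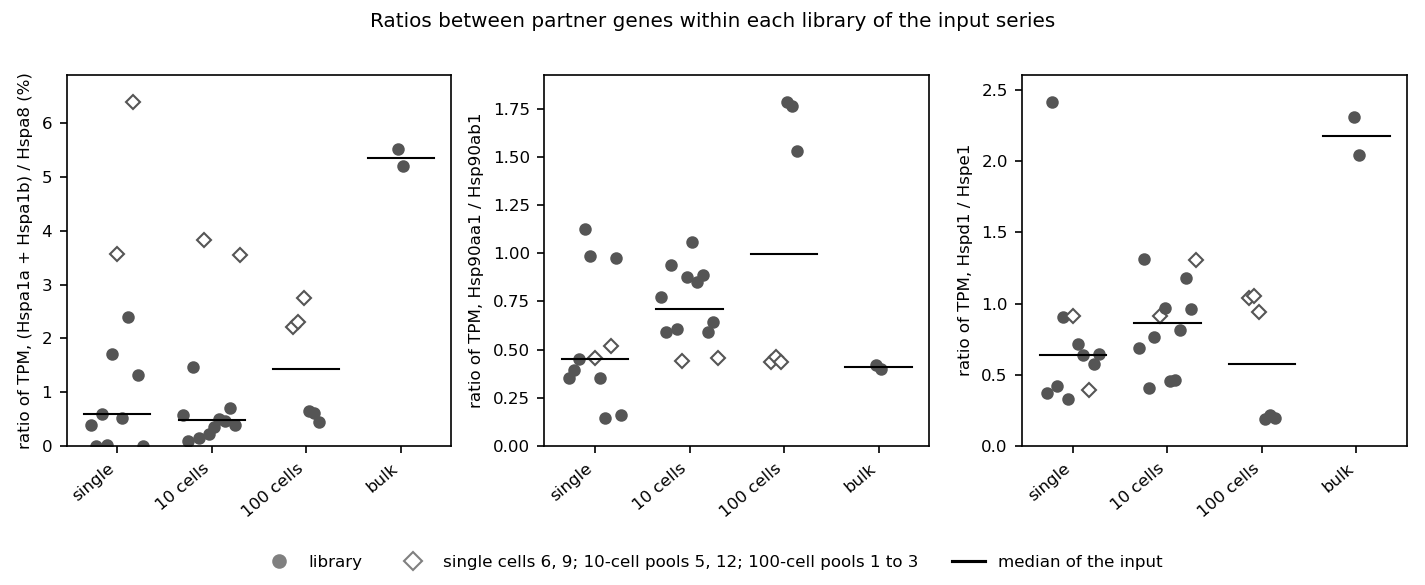
Ratio of Hspa1a plus Hspa1b to Hspa8 (percent), Hsp90aa1 to Hsp90ab1 and Hspd1 to Hspe1, by library and input, with open diamonds for the libraries that stood apart. The 100-cell pools 4 to 6 lie at 1.53 to 1.78 for Hsp90aa1 over Hsp90ab1, above the 0.436 to 0.464 of pools 1 to 3. The part of transcript length in these ratios was not tested.

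In bulk RNA the order of levels was Hspa8 (1740 and 1713 TPM), Hsp90ab1 (1511 and 1556), Hsp90aa1 (633 and 622), Hspd1 (a mean of 525), Hspe1 (232 and 252), Hsph1 (232 and 228), Hspb1 (103 and 117), Dnajb1 (89.1 and 89.3), Hspa1b and Hspa1a. Only Hspe1 and Hsph1 overlapped. In pools of 10 the medians ran Hspa8, Hsp90ab1, Hsp90aa1, Hspe1, Hspd1, Hspb1, Dnajb1, Hsph1, Hspa1b and Hspa1a, and of neighbouring genes only Hspd1 and Hspb1 had ranges that did not overlap. In single cells every pair of neighbours overlapped. Because each table was normalized on its own, levels are not compared between the 2 experiments.

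Of 62 further chaperone genes in the input table, 6 were called higher in pools of 10 than in single cells (limma), against 16.9% of all genes. The count was 12 without the 4 libraries that stood apart (25.7% of all genes) and 22 without single cells 1 to 4 (22.2%). The 6 included Hspa5 (1.22, adjusted p = 0.0170), the mitochondrial cochaperone Grpel2 (2.74, adjusted p = 0.0212), the mitochondrial HSP90 Trap1 (2.91, adjusted p = 0.0268), Dnajb9 (2.41, adjusted p = 0.0273) and the small heat-shock protein Cryab (2.87, adjusted p = 0.0311). Between bulk RNA and pools of 10, 14 were called higher and 6 lower, beside 33.2% and 7.79% of all genes. The total was 25 without 10-cell pools 5 and 12, and 0 with the replicate number as a block. Those called included Hyou1 (4.40, adjusted p = 0.00115), an HSP70 relative of the endoplasmic reticulum, Fkbp5 (2.79, adjusted p = 0.000981), an HSP90 cochaperone, Bag6 (2.59, adjusted p = 0.00170) and Dnajc5 (2.07, adjusted p = 0.000533), all higher, and Cacybp (-0.80, adjusted p = 0.00335), lower. Between pools of 100 and pools of 10, 0 were called (limma), with 11 at an unadjusted p under 0.05, beside 792 of 12325 genes. Without 100-cell pools 1 to 3, 31 of the 62 were called, beside 15.8% of all genes, and 28 when 10-cell pools 5 and 12 were also left out. In the comparison of spread, 9 of 62 were called lower in pools, beside 16.2% of all genes, and 10 were called without the 4 libraries. The 9 included Grpel2 (-2.17), Bag3 (-1.71), Dnajb9 (-1.91), Dnaja4 (-1.80) and Trap1 (-2.56).

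Across the 12 pools of 10, the genes most like Hspa1a were Notum (Pearson r = 0.967), Stk36 (0.941) and Ubxn11 (0.913), and those most like Hspa8 included Thnsl1 (0.904) and Hspa5 (0.890), picked from 12320 genes. These pools include 5 and 12, which share a high level of Hspa1a (15.8 and 15.7 TPM) and stand apart over all genes. Over the other 10 pools, r was 0.911 for Notum, 0.839 for Stk36 and 0.731 for Ubxn11 with Hspa1a, and 0.940 for Thnsl1 and 0.899 for Hspa5 with Hspa8.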

How the data were processed

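The authors aligned paired reads to mm10 with STAR (version 2.52 in the submitters' processing notes), counted them with featureCounts, applied EDASeq upper-quartile normalization and deposited TPM in 1 table per experiment. TPM keeps no depth, and the tables were normalized separately, so tests stayed within a table. All value columns were mapped to a sample by name. The members and lists were chosen with earlier results of these data known. Deposited TPM were put on the log2(TPM + 1) scale, which understates changes of low genes, and tested with limma 3.58.1 (R 4.3.3, trend, two-sided) over genes with at least 1 TPM in 3 libraries, with Benjamini-Hochberg adjustment over all of them and a threshold of 0.05. The processing fit held all 12 libraries and each input fit the 2 inputs compared. Spread was tested as absolute deviations from the group median. Named beyond the members are the listed chaperones past the threshold (at most 5 by adjusted p), the 3 of lowest p over the 4 conditions, and the 3 genes most correlated with Hspa1a and with Hspa8. Dnaja4 was named as the rule gave it for spread. Items withheld from this text are not reported here. The fits were tested on simulated data. Alternatives were another pseudocount (0.1), other filters, scalings and weights, a replicate block and left-out libraries.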

Additional observations from a re-analysis of the deposited data

How the results depend on the processing

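TPM hold no depth, so counting error could not be given, and Hspa1a, the lowest member, was dropped by the filter at a mean of 5 TPM in the processing table. Leaving out each processing library in turn called 0 to 0 members in all 7 comparisons. Same-numbered processing libraries deviated together at r = -0.0422 to 0.229 (median 0.0693, 18 pairs), and differently numbered ones at -0.160 to 0.0836 (median -0.0300, 36 pairs). The numbers were not taken as pairs in the main fit. Whether they mark a shared culture or day is not given in the sources used here. With the replicate number as a block, 1 member (Hsp90aa1, adjusted p = 0.0209) was called for Pre-enriched against Pre-FACS, no other processing call of a member changed, 1 further chaperone was called over the 4 conditions and 2 for FACS-only against Pre-FACS, and 28 of 36 best matches had the same number, a hint from the data and not the design. For 10-cell pools against single cells, 2 members were called with a pseudocount of 0.1 (3287 of 12325 genes called), no filter, no trend or weights per input. For no filter, no trend and weights, the count of all genes is not given here, so those member counts have no background beside them. The member count was 4 without single cells 1 to 4 (22.2% of all genes) and 3 without single cells 6 and 9 and 10-cell pools 5 and 12 (25.7%). For 100-cell against 10-cell pools, 3 were called without 100-cell pools 1 to 3 and 2 when 10-cell pools 5 and 12 were also left out. For bulk RNA, 8 were called with weights, where 9324 of 12325 genes were called, 3 with a pseudocount of 0.1, and 0 with the replicate block, where 0 genes were called. The differences without either bulk library are given above. For spread, 1 was called without single cells 1 to 4, beside 5.83% of all genes. The alternatives without single cells 6 and 9 and 10-cell pools 5 and 12 were chosen after seeing the data. The Hsp90aa1 to Hsp90ab1 median of pools of 100 was 1.76 without pools 1 to 3, and the Hspd1 to Hspe1 median 1.04 without pools 4 to 6. Over all genes, the count for 4 conditions moved from 13 to 7 (no filter), 1 (no trend) and 61 (block), for Mock against Pre-FACS from 1 to 0, 7 (block) and 0 (only these conditions), for FACS-only against Pre-FACS from 15 to 0 (no trend) and 77 (block), and for Pre-enriched against Pre-FACS from 6 to 37 (block). For FACS-only against Mock it moved from 0 to 4 (block), for Pre-enriched against Mock to 1 (no filter), 1 (no trend), 2 (block) and 4 (only these), and for Pre-enriched against FACS-only to 1, 2, 7 and 1. For 10-cell pools against single cells it moved from 2079 to 3287 (pseudocount 0.1), 1146 (rescaled), 883 (block) and 3167 (without the 4 libraries), and for 100-cell against 10-cell pools from 1 to 3 (no filter), 0 (no trend), 0 (block), 1946 (without 100-cell pools 1 to 3), 2 (without 4 to 6), 1543 (also without 10-cell pools 5 and 12) and 57 (without 10-cell pools 5 and 12 alone). For bulk RNA it moved from 5050 to 9324 (weights) and 0 (block), and for spread from 2078 to 719 (without single cells 1 to 4). The causes were not tested.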
